A study of Homo sapiens with 6 samples.

Results

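The HOX genes lie side by side in the HOXA, HOXB, HOXC and HOXD clusters, and their chromatin accessibility was compared between A375 cells carrying an empty vector and A375 cells overexpressing HMGB2 (HMGB2OE). Members were the ATAC-seq peaks centred in the body of 1 of the 39 protein-coding HOX genes of GENCODE release 44, and the intergenic peaks whose nearest protein-coding start site belonged to such a gene. Of 152800 peaks in the deposited table, 122 were members, and all 122 were among the 150117 peaks that passed the filter on low counts. HOXB held 42 of them, HOXC 37, HOXA 24 and HOXD 19. Of the 39 genes, 33 had at least 1 peak assigned to them; 27 of the peaks centred in HOX gene bodies lay in more than 1 protein-coding gene, and each was given to the HOX gene with the nearest start.

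HOX genes encode homeodomain transcription factors that specify position along the body axis. Within a cluster the genes are ordered by paralog number, and in the embryo the low-numbered end is expressed earlier and nearer the head than the high-numbered end. Polycomb complexes hold silent HOX genes in compact chromatin, Trithorax and MLL complexes keep active ones open, retinoic acid induces the low-numbered end, and adult cells retain part of the pattern of their site of origin.

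A375 is a long-used line of human melanoma cells. HMGB2 is a high mobility group box protein that binds and bends DNA. In ATAC-seq, the Tn5 transposase cuts and tags open DNA, so that the number of reads in a peak rises with accessibility. Both groups, 3 empty vector and 3 HMGB2OE libraries, came from A375, and the HMGB2OE cells are a stable line made by lentiviral transduction; the study describes the libraries as technical replicates of an experiment done once, so the p-values here measure the spread between technical libraries.

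Counts in peaks summed to between 26910189 and 45645294 per library. Peaks overlapping the coding exons of HMGB2 were higher in HMGB2OE libraries, at 98.4 ± 5.31 against 32.0 ± 15.7 normalized counts (SD, n = 3 each) in the more strongly changed one (log2 fold change 1.67, adjusted p = 0.000113, edgeR), whereas its promoter peak had a log2 fold change of -0.01 (adjusted p = 0.959). Marker promoters were read from the peak centred nearest to the canonical start within 1 kb. Of the melanoma and melanocyte markers, MITF, SOX10, S100B and PMEL had such a peak, with 501.2 to 1325 normalized counts in empty vector libraries. MLANA, TYR, DCT and TYRP1 had none. The undifferentiated melanoma markers AXL, NGFR, EGFR and SOX9 had promoter peaks of 253.3 to 510.3 normalized counts. PTPRC and CD3E, leukocyte markers, and PECAM1 and CDH5, endothelial markers, had no peak there, nor did KRT14 among the keratinocyte markers, while TP63 and KRT5 had peaks at 115.9 and 64.7. No marker promoter peak reached an adjusted p under 0.05. These are accessibility values and do not measure expression.

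The most accessible HOXB peak and the most accessible HOXC peak in empty vector libraries overlap no HOX exon and had a lower count in HMGB2OE. Their sequences are shown first. Each is the central 300 bases of the peak on the plus strand of hg38. Capitals mark matches, on either strand, to 1 of 4 words searched: the CTCF core CCANNAGNNGGC, the AP-1 word TGANTCA, the PBX-HOX word TGATNNAT and the homeodomain core TAATTA, where N is any base.
chr17:48483418-48483717: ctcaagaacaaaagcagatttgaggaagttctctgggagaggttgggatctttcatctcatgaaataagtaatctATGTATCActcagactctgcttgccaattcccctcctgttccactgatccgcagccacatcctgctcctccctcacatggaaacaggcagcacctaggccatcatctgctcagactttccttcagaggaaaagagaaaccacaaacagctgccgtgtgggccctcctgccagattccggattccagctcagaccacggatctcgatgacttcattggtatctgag
chr12:54018099-54018398: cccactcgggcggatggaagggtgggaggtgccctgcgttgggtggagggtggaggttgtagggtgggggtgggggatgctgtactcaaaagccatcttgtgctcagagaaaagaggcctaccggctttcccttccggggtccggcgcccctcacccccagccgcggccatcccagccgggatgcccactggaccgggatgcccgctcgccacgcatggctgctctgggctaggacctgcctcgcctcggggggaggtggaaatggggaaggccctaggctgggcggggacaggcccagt
The first, 45.0 kb beyond the HOXB1 end of the cluster, holds a PBX-HOX word that overlaps none of the other 3 words. The second, in an intron of the HOXC4 gene record, holds none of the 4 words in this window.

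HOX peaks were GC-rich and CpG-rich beside the other peaks of these cells. Their median GC content was 53.9%, against 46.2% over all tested peaks, and their median ratio of observed to expected CpG was 0.554 against 0.226. They were also more accessible, with a median of 217 normalized counts in empty vector libraries (range 24.8 to 1624) against 104 over all tested peaks. Peaks near starts elsewhere were similar in composition. The 38 HOX peaks within 1 kb of a protein-coding start had medians of 63.5% GC, a CpG ratio of 0.812 and 341 normalized counts. Other tested peaks that near a start had 63.7%, 0.754 and 435. AP-1 words were in 17.2% of HOX peaks and 36.4% of all tested peaks, CTCF core words in 4.1% and 7.44%, PBX-HOX words in 17.2% and 21.9%, and homeodomain core words in 13.1% and 11.6%.

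Among GC-rich peaks the order for the PBX-HOX word was different. Of the 43 HOX peaks with a GC content of 60% or more, 7 held it (16.3%), against 3.55% of all tested peaks of that GC content. These shares are a description of which letters are present, with no test. PBX proteins are TALE homeodomain cofactors that bind DNA together with HOX proteins. The 30 bases around the word in 6 of these peaks are shown on the plus strand of hg38, with the word in capitals.
chr7:27131009-27131038: gcgcgggtgcgTGATGGATgctgctgtccg
chr17:48626510-48626539: tcagctccgacATAAATCAatcgggcgagg
chr12:54090535-54090564: gtcaggggaccATCCATCAgcgccgcccgg
chr12:53995518-53995547: ccttgcgacacATACATCAcacaaaagatc
chr2:176178380-176178409: attaagagttcATCAATCAcccggtgtgca
chr2:176107202-176107231: ttaccaccagaATCAATCAagatgaattgc
In order, they lie in the promoter peaks of HOXA4 and HOXB9, in a peak 34.4 kb beyond the HOXC4 end of its cluster, in a peak of the HOXC9 gene record, in the peak near the start of the non-coding gene HAGLROS, and in the promoter peak of HOXD11. The promoter peaks among them ranged from 153 normalized counts in empty vector libraries at HOXD11 to 815 at HOXB9. None of the 7 had an adjusted p under 0.05, and the lowest was that of the HOXC9 peak, with 677 ± 14.7 normalized counts in empty vector and 555 ± 27.4 in HMGB2OE libraries (SD, n = 3 each, adjusted p = 0.0501, edgeR).

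Peaks were unevenly placed within the clusters. The gene records of HOXA span 107 kb of chromosome 7, those of HOXB 200 kb of chromosome 17, those of HOXC 117 kb of chromosome 12 and those of HOXD 98.2 kb of chromosome 2. Within these spans there were 1.49 peaks per 10 kb in HOXA, 1.65 in HOXB, 2.39 in HOXC and 1.73 in HOXD. In all, 94 of the 122 peaks lay inside a span and 28 outside. Taken from centre to centre of neighbouring HOX peaks that overlap a span, the widest spacing in HOXB was 57.0 kb between HOXB9 and HOXB13, a stretch that held 3 listed peaks assigned to other genes. In HOXD it was 37.5 kb between peaks assigned to HOXD3 and HOXD1 and in HOXC 17.4 kb between peaks assigned to HOXC12 and HOXC11, with 0 other listed peaks in either. The HOXD stretch contained the HOXD4 gene and the canonical start of HOXD3. A stretch without a listed peak is one where peak calling found none in the atlas, and the reads there were not analysed here.

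**Figure D1:**
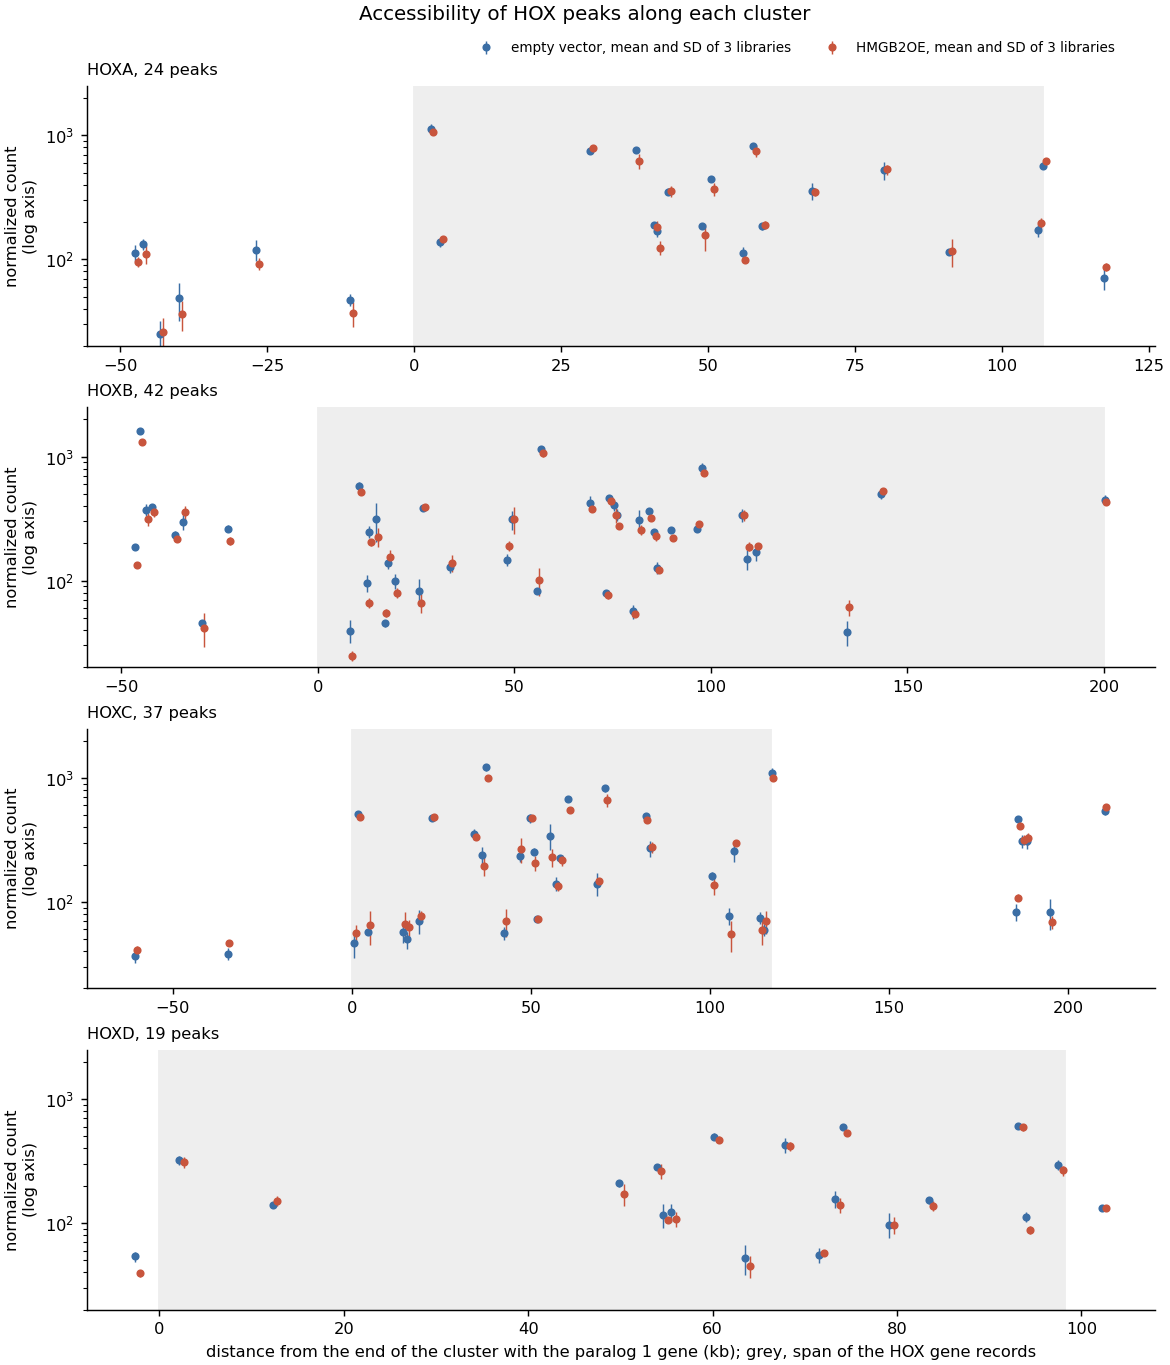
Normalized counts (log axis) of the 122 HOX peaks against distance in kb from the end of each cluster that carries the paralog 1 gene (or, in HOXC, the HOXC4 gene), with points as means and bars as SDs of 3 libraries; the grey band is the span of the HOX gene records. Levels ran from 24.8 to 1624 in empty vector libraries, and the points of both groups lay close together at most peaks.

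The most accessible HOX peak was not in a protein-coding gene. It was the peak at chr17:48483317-48483818, 45.0 kb beyond the HOXB1 end, whose sequence is shown above, with 1624 ± 71.2 normalized counts in empty vector libraries (SD, n = 3). The most accessible HOXC peak was the HOXC4 intron peak, at 1213 ± 76.1. The most accessible HOXD peak, at chr2:176097296-176097797 between HOXD13 and HOXD12, had 604 ± 29.5 and holds a CTCF core word and an AP-1 word. Its level in HMGB2OE libraries was 590 ± 35.1, and its log2 fold change of -0.04 (adjusted p = 0.869, edgeR) lay on either side of 0 under other processing.

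Of the 39 HOX genes, 27 had a promoter peak, taken as the tested peak whose centre is nearest to the start of the canonical transcript within 1 kb. They were 6 of the 11 HOXA genes, 7 of the 10 HOXB genes, 8 of the 9 HOXC genes and 6 of the 9 HOXD genes. HOXA2, HOXA6, HOXA7, HOXA9, HOXA10, HOXB1, HOXB3, HOXB5, HOXC6, HOXD3, HOXD4 and HOXD12 had none, so that open promoters did not stop at one point along a cluster. Genes with several start sites, HOXB3, HOXA10 and HOXC6 among them, could have a peak at another start. The 5' end of the HOXB3 gene record lay in the promoter peak of HOXB6. That of HOXD3 lay in a peak of 283 normalized counts in empty vector libraries, and that of HOXA6 just outside a peak of 817.

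The promoter peaks spanned a wide range of levels. HOXC13 was near the top, at 1099 ± 95.2 normalized counts in empty vector libraries (SD, n = 3). HOXC10, HOXB9 and HOXA4 followed, at 826 ± 55.1, 815 ± 68.6 and 765 ± 32.6, also within their spread of each other. A group from 592 down to 424 comprised, in falling order, HOXD10, HOXA13, HOXC4, HOXD8, HOXC5, HOXB13, HOXA5 and HOXD9. HOXC9, HOXB6, HOXD1, HOXB4, HOXB7, HOXD13, HOXC11 and HOXC8 lay between 342 and 234. The lowest were HOXA3 at 185, HOXC12 at 162, HOXD11 at 153, HOXB8 at 127, HOXA11 at 114 and HOXB2 at 45.3. Within these groups most neighbours in the order differed by less than their SDs. The median of the 27 was 342, which is above 80.1% of all tested peaks, while other peaks within 1 kb of a protein-coding start had a median of 435.

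**Figure D2:**
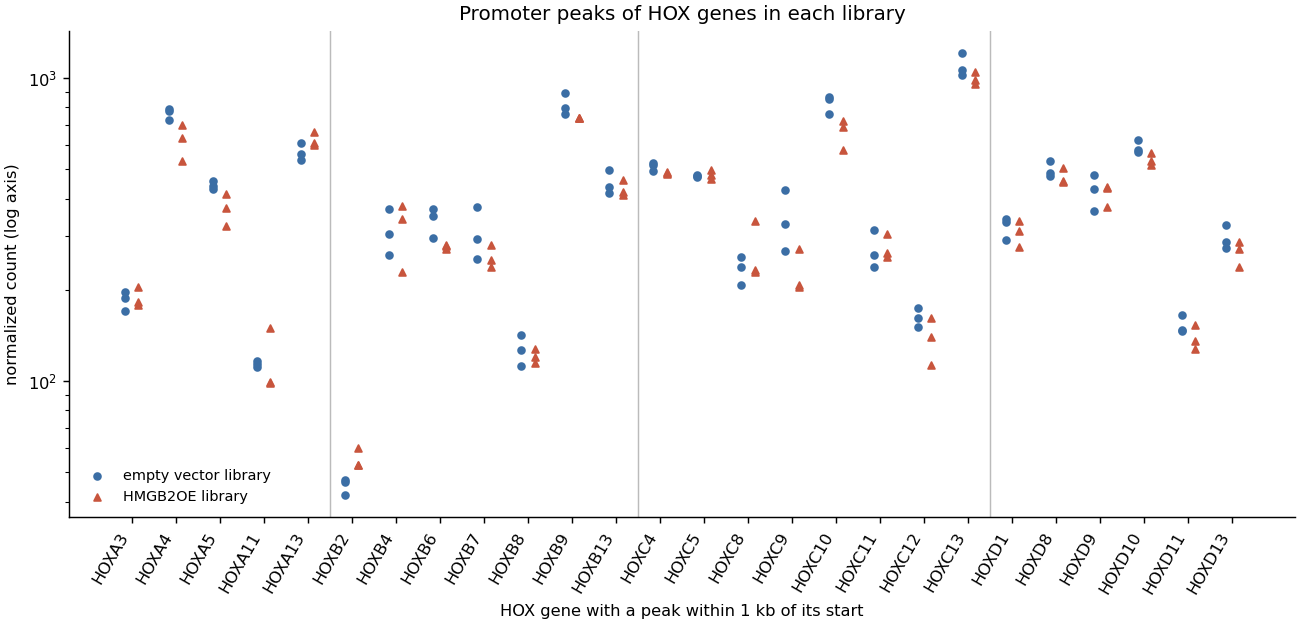
Normalized counts (log axis) of the promoter peaks of the HOX genes whose levels are given above, with 1 point per library; grey lines part the clusters HOXA, HOXB, HOXC and HOXD. HOXC13 was highest of these and HOXB2 lowest. All HMGB2OE libraries lay below all empty vector libraries at HOXA4, HOXA5, HOXB6, HOXB9, HOXC4, HOXC10 and HOXD10, and above them at HOXB2. Over all tested peaks, 12.5% were apart in this way with HMGB2OE lower and 12.6% with HMGB2OE higher.

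Most HOX promoter peaks did not pass the test between HMGB2OE and empty vector. Of the 27, 2 were lower at an adjusted p under 0.05, those of HOXC9 and HOXC10, and 0 were higher (edgeR); DESeq2 also gave 2 and 0, and at an unadjusted p under 0.05 edgeR gave 5 lower and 0 higher. The median log2 fold change was -0.08, with 19 below 0 and 8 above. Its range over all processing alternatives was -0.14 to -0.06. Other promoters also leaned downward: 38 HOX peaks lay within 1 kb of any protein-coding start, with a median of -0.11 and 73.7% below 0, while the 20097 other tested peaks that near a start had a median of -0.06 with 66.1% below 0. Of these 20097, edgeR gave 369 lower and 241 higher at an adjusted p under 0.05. At an unadjusted p under 0.05 it gave 2383 lower and 1012 higher, where all tested peaks had 10.2% lower and 10.7% higher.

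Over all members, no HOX peak met the call rule, which needs an adjusted p under 0.05 together with a change of 1.5-fold or more. With edgeR, 0 of 122 were higher, where 1.87% of all tested peaks were, and 0 were lower, where 1.44% were. DESeq2 also called 0 in each direction, against 1.45% of its tested peaks higher and 1.14% lower. At an unadjusted p under 0.05 with edgeR, 5 HOX peaks were higher (4.1%, background 10.7%) and 21 were lower (17.2%, background 10.2%). With the adjusted p alone and no limit on fold change, edgeR gave 0 higher (background 3.44%) and 5 lower (4.1%, background 3.03%). The share of lower peaks in this edgeR comparison was near its background. DESeq2 also gave 0 and 5, beside 3602 higher and 3279 lower of its 143558 tested peaks. Single libraries decided part of these counts: under the call rule 1 peak was lower without empty vector replicate 2 or HMGB2OE replicate 2 and 2 were without empty vector replicate 3, and with the adjusted p alone 2 were lower without empty vector replicate 1, 1 without empty vector replicate 2 or HMGB2OE replicate 1, and 0 without HMGB2OE replicate 3. With 1 library left out, 1552 to 2237 of all tested peaks were lower under the call rule and 2233 to 4073 with the adjusted p alone.

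The members' small differences were more often downward than those of all peaks. The log2 fold change was below 0 for 77 of 122 members (63.1%), against 50.8% of all tested peaks, with a median of -0.08 against -0.005. The range over members was -0.67 to 0.67, and the median standard error 0.136. At 22 members (18.0%, background 12.5%) every HMGB2OE library lay below every empty vector library, and at 6 (4.92%, background 12.6%) every one lay above. The median stayed below 0 under all alternatives run, between -0.13 and -0.06. Highly accessible and GC-rich peaks elsewhere also leaned downward. The 44 HOX peaks with a mean of 300 counts or more had a median of -0.08 beside -0.05 for other peaks of that level, and the 43 with a GC content of 60% or more had -0.11 beside -0.04; how far level and base composition account for the members' median was not tested. Across the 122 peaks, Spearman's rho of the log2 fold change was 0.0235 with GC content and -0.114 with mean count. The points share the same 6 libraries.

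**Figure D3:**
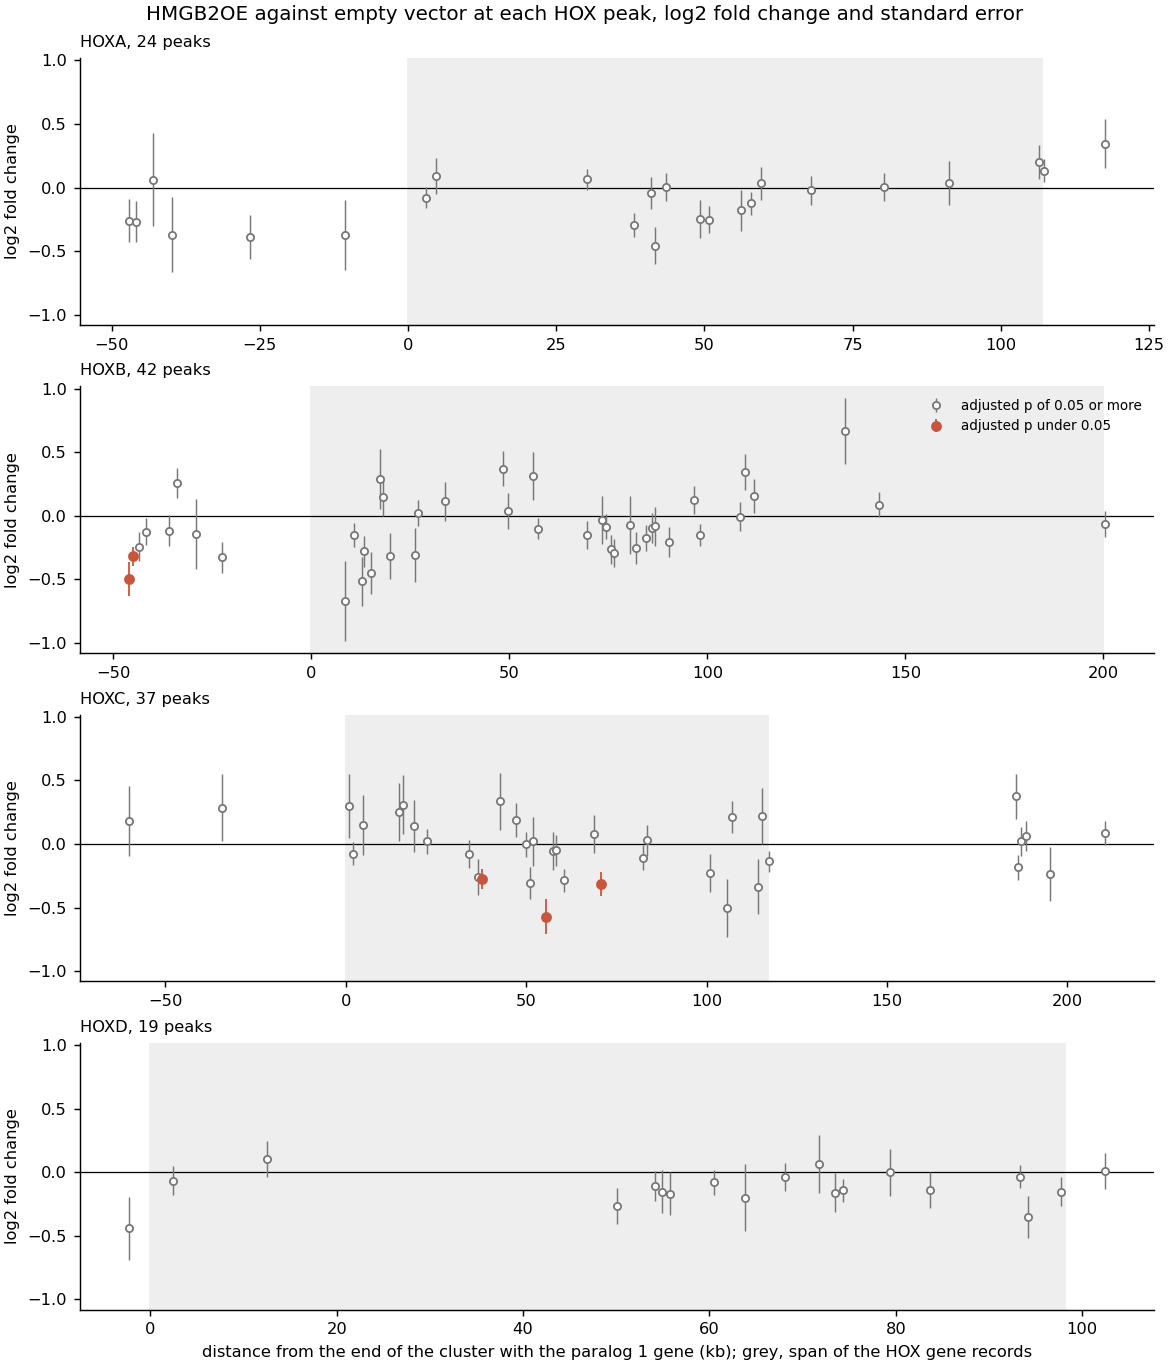
Log2 fold change of HMGB2OE against empty vector for each HOX peak against distance in kb from the paralog 1 end of the cluster (the HOXC4 end in HOXC); bars are standard errors, filled points have an adjusted p under 0.05, and the grey band is the span of the HOX gene records. The 5 filled points are all below 0, 2 of them beyond the HOXB1 end and 3 within HOXC.

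The 5 peaks with an adjusted p under 0.05 were all lower in HMGB2OE, and all by less than 1.5-fold. A pair of them were neighbours 46.1 and 45.0 kb beyond the HOXB1 end. At chr17:48482187-48482688 the empty vector libraries had 182, 193 and 188 normalized counts and the HMGB2OE libraries 137, 133 and 128. At chr17:48483317-48483818 they had 1544, 1679 and 1650 in empty vector and 1363, 1305 and 1239 in HMGB2OE. Neither pair of groups overlapped, and the spread within each group was small beside the gap. On the log2 scale the first changed by -0.50 ± 0.133 (standard error; edgeR, adjusted p = 0.0212) and the second by -0.32 ± 0.0763 (adjusted p = 0.00989). Adjusted p-values over the alternatives ran from 0.0044 to 0.0851 for the first, which passed in 12 of 16 settings, and from 0.00212 to 0.0606 for the second, which passed in 14. The first lost its adjusted p under 0.05 without empty vector replicate 2 or any 1 of the HMGB2OE replicates, and the second without empty vector replicate 2 or HMGB2OE replicate 3.

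The promoter peaks of HOXC9 and HOXC10, high-numbered HOXC genes, were both lower. HOXC9's, at chr12:54000218-54000719, lies wholly in the coding part of its first exon, and had 428, 329 and 269 normalized counts in empty vector and 205, 272 and 207 in HMGB2OE libraries. The groups overlapped there, since the highest HMGB2OE library was above the lowest empty vector library. The log2 difference was -0.57 ± 0.140 (standard error; edgeR, adjusted p = 0.0121), a fold of 1.49, and it passed in 13 of 16 settings, with adjusted p-values from 0.00175 to 0.103. Without empty vector replicate 2, empty vector replicate 3 or HMGB2OE replicate 2 it also passed the limit of 1.5-fold, with log2 fold changes of -0.60, -0.72 and -0.72, and without empty vector replicate 1, HMGB2OE replicate 1 or HMGB2OE replicate 3 it did not pass the adjusted p. HOXC10's, at chr12:53984925-53985426, covers the start of the gene and had 864, 851 and 763 in empty vector and 690, 721 and 576 in HMGB2OE libraries. The groups did not overlap. The log2 difference was -0.31 ± 0.0931 (standard error; adjusted p = 0.0381, edgeR), and it passed in 12 of 16 settings, the exceptions being those without empty vector replicate 1 or 2 or HMGB2OE replicate 1 or 3.

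The remaining lower peak was the HOXC4 intron peak at chr12:54017998-54018499. Empty vector libraries had 1286, 1221 and 1134 normalized counts, and HMGB2OE libraries 1034, 1038 and 930. The groups did not overlap. The log2 difference was -0.28 ± 0.0819 (standard error; adjusted p = 0.0383, edgeR), and it passed in 8 of 16 settings, with adjusted p-values from 0.0301 to 0.161. It did not pass with GC-content offsets (adjusted p = 0.103) or with the trend on mean count removed (adjusted p = 0.0505), and of the settings that left out 1 library it passed only without empty vector replicate 3. The HOXC4 gene record runs over much of the cluster, and the nearest canonical start to this peak was that of HOXC8, 9263 bp away; HOXC8's own promoter peak had a log2 fold change of 0.19 (adjusted p = 0.465).

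**Figure D4:**
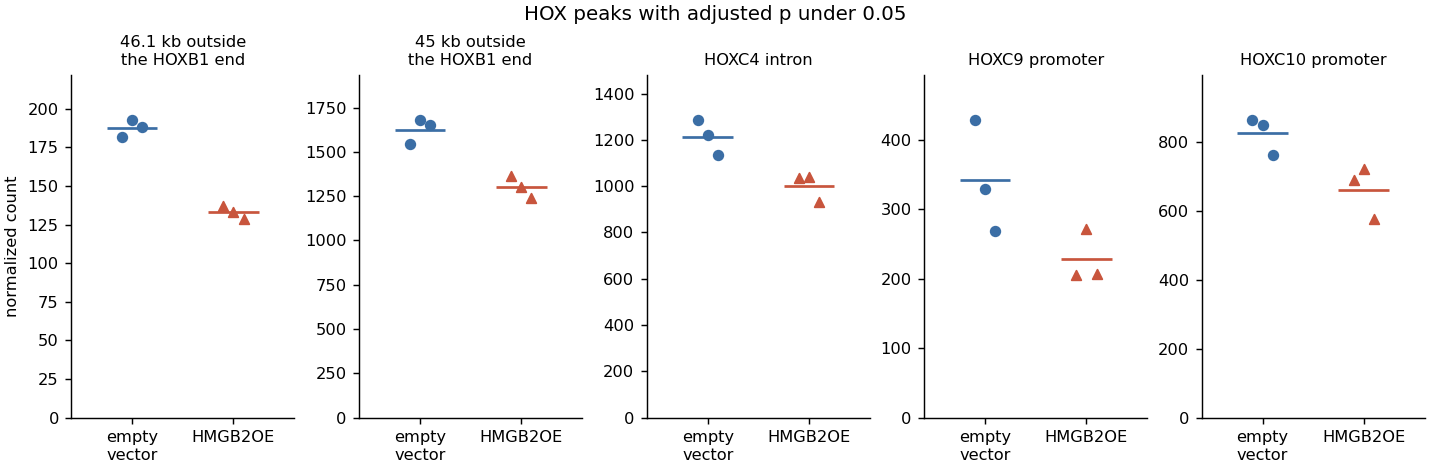
Normalized counts, on axes that start at 0, of the 5 HOX peaks with an adjusted p under 0.05; each point is 1 library and each bar the mean of 3. The groups were apart at 4 of the peaks and overlapped at the HOXC9 promoter.

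By cluster, the medians of the log2 fold change were -0.06 in HOXA, -0.11 in HOXB, 0.02 in HOXC and -0.14 in HOXD. HOXA, HOXB and HOXD stayed below 0 in all 18 settings, whereas HOXC was below 0 in 6 of them, so no direction is given for its median. The mean summed normalized count of a cluster's peaks differed between HMGB2OE and empty vector by -5.13% in HOXA, -8.0% in HOXB, -7.17% in HOXC and -6.69% in HOXD (no test). In empty vector libraries all 122 peaks together had 36544, 36565 and 34499 normalized counts, and in HMGB2OE libraries 33377, 34669 and 32050. Those groups overlapped, because HMGB2OE replicate 2 lay above empty vector replicate 3, and the same held within HOXA, HOXC and HOXD. In HOXB the lowest empty vector sum, 12370, was barely above the highest HMGB2OE sum, 12360.

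**Figure D5:**
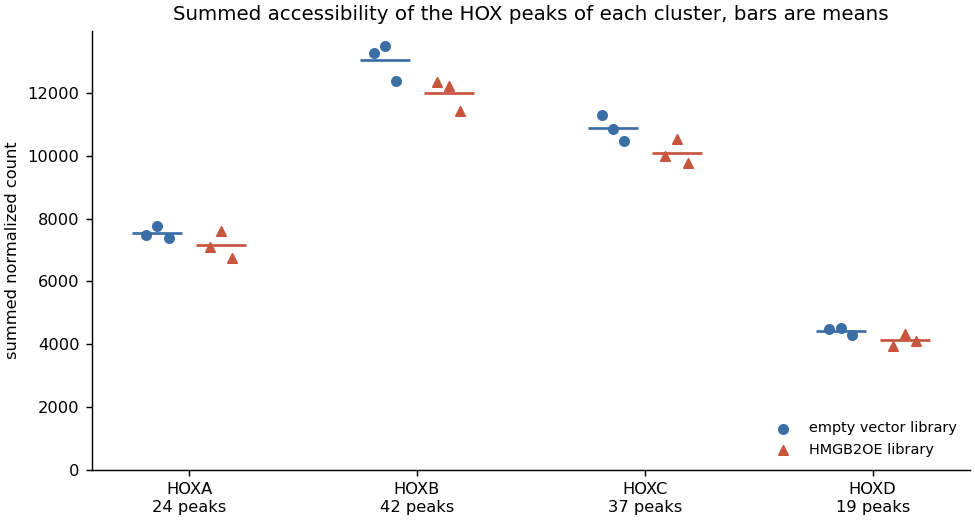
Summed normalized count of the HOX peaks of each cluster in each library (points) with the mean of 3 libraries (bars), on an axis that starts at 0. HMGB2OE means differed from empty vector means by -5.13% to -8.0%, with overlapping libraries in HOXA, HOXC and HOXD.

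In HOXD the differences were small but mostly of one sign. Of its 19 peaks, 16 had a log2 fold change below 0, while of the 72 tested peaks within 1 Mb that were not members 29 did (40.3%), with a median of 0.07. Around the other clusters 56.6% (HOXA), 59.3% (HOXB) and 58.2% (HOXC) of such peaks were below 0, with medians of -0.03, -0.05 and -0.02, beside 58.3%, 69.0% and 48.6% of the members. The HOXD peaks and their surroundings were unlike in composition and level. Their median GC contents were 64.9% and 42.1%, and their median normalized counts in empty vector libraries 153 and 81.2. Of the other tested peaks with a GC content of 60% or more, 60.1% were below 0. Whether a cluster differs from its surroundings was not tested. None of the 19 reached an adjusted p under 0.05, and 1 had an unadjusted p under 0.05. That one, at chr2:176096444-176096945 between HOXD13 and HOXD12, had 107, 106 and 125.2 normalized counts in empty vector and 91.8, 91.7 and 79.9 in HMGB2OE libraries, groups that did not overlap (log2 fold change -0.35, adjusted p = 0.223, edgeR). A peak of 176140555 to 176141056 in the HOXD3 gene record, which holds a CTCF core word, had a log2 fold change of -0.27 (adjusted p = 0.279), which was -0.14 without HMGB2OE replicate 3 and -0.42 without HMGB2OE replicate 1. An intergenic peak 2.35 kb beyond the HOXD1 end had one of -0.44 (adjusted p = 0.324). The promoter peaks of HOXD1, HOXD8, HOXD9, HOXD10, HOXD11 and HOXD13 had log2 fold changes from -0.15 to -0.04, none past the test. HOXD10's groups did not overlap, with 571, 626 and 580 in empty vector and 517, 564 and 533 in HMGB2OE libraries (adjusted p = 0.402).

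In HOXA the peaks nearest to the test's threshold lay around HOXA4 and HOXA5. The HOXA4 promoter peak, at chr7:27130796-27131297, had 780, 788 and 728 normalized counts in empty vector and 634, 699 and 532 in HMGB2OE libraries. The groups did not overlap, and the log2 difference was -0.30 ± 0.0955 (standard error; adjusted p = 0.059, edgeR). A peak between HOXA4 and HOXA5, at chr7:27134350-27134851, had 157, 193 and 163 in empty vector and 126, 139 and 108 in HMGB2OE libraries, again without overlap (log2 fold change -0.46, adjusted p = 0.0549). HOXA5's promoter peak had 459, 439 and 431 against 371, 415 and 324 (log2 fold change -0.25, adjusted p = 0.161). The HOXA4 peak passed with the replicate number as a block (adjusted p = 0.0325) and without HMGB2OE replicate 2 (adjusted p = 0.0382), and the peak between the genes with the block (adjusted p = 0.0343) and with the trend on mean count removed (adjusted p = 0.0373). At the high-numbered end of the cluster, the HOXA13 promoter had a log2 fold change of 0.13 (adjusted p = 0.443). HOXA3 and HOXA11, at 0.03 each, were near 0.

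In HOXB, outside the pair of peaks beyond HOXB1, the smallest p-value was at the HOXB2 coding peak, chr17:48543362-48543863, with 421, 309 and 208 normalized counts in empty vector and 253, 244 and 179 in HMGB2OE libraries. The groups overlapped and the empty vector libraries were widely spread. The log2 difference was -0.45 ± 0.163 (standard error; adjusted p = 0.0948, edgeR). It passed when empty vector replicate 3 was left out (-0.67 with an adjusted p of 0.00804) and with the replicate block (adjusted p = 0.013), whereas without empty vector replicate 1 it was -0.20 (adjusted p = 0.516). Of the 8 peaks within 20 kb inside the HOXB1 end, 6 were below 0, beside 29 of all 42 HOXB peaks (69.0%). This window was not among the planned position classes. The largest differences of any HOX peak were also in HOXB, at low counts. These 2 peaks, chosen after their values were seen, had log2 fold changes of -0.67 at chr17:48536885-48537386 near HOXB1 (39.5 against 24.7 normalized counts, adjusted p = 0.215) and of 0.67 at chr17:48663127-48663628 on the HOXB13 side of HOXB9 (38.6 against 60.7, adjusted p = 0.119). Among the promoters, HOXB6 had a log2 fold change of -0.29 (adjusted p = 0.12), HOXB7 -0.25, HOXB9 -0.15, HOXB8 -0.08, HOXB13 -0.07, HOXB4 0.04 and HOXB2 0.29 (adjusted p = 0.529), none past the test.

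The remaining HOXC promoters were close to 0 or uncertain. HOXC5, with 477, 474 and 470 normalized counts in empty vector and 479, 464 and 499 in HMGB2OE libraries, changed by 0.02 ± 0.0953 (standard error) on the log2 scale, and HOXC11 had one of 0.03. HOXC4's was -0.08, HOXC13's -0.14 and HOXC12's -0.23 (adjusted p = 0.399).

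Peaks were also classed by the paralog number of the gene they were assigned to. Those of the paralog 1 to 3 genes had a median log2 fold change of -0.15 (44 peaks), those of paralogs 4 to 8 -0.08 (36 peaks) and those of paralogs 9 to 13 -0.004 (42 peaks). The assigned gene was not always the one with the nearest canonical start. The promoter peaks of HOXA4 and HOXA5 and the peak between these genes were assigned to HOXA3 and counted in the first class. HOXB9's promoter peak was assigned to HOXB7. HOXC has no gene in the first of these classes. The counts below 0 were 32 of 44, 23 of 36 and 22 of 42, and the differences between the classes were not tested. Peaks at HOX starts had a median of -0.09 (32 peaks), other peaks inside the cluster spans -0.04 (65 peaks) and those outside -0.14 (25 peaks). Lower peaks at an adjusted p under 0.05 (edgeR) numbered 2 of 32, 1 of 65 and 2 of 25 in these 3 kinds, beside 3.03% of all tested peaks. The differences between the kinds were not tested.

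Non-coding HOX genes shared their peaks with coding neighbours, so reads from such a pair cannot be told apart. HOXA11-AS shared the promoter peak of HOXA11, HAGLR that of HOXD1, HOXC-AS1 that of HOXC9 and HOXC-AS3 that of HOXC10. HAGLROS had a peak of its own, with 143, 143 and 133 normalized counts in empty vector and 135, 158 and 160 in HMGB2OE libraries, groups that overlapped (log2 fold change 0.11, adjusted p = 0.724, edgeR). HOTAIR, HOTTIP and HOXB-AS3, long non-coding RNAs of HOXC, HOXA and HOXB, had no peak centred within 1 kb of their canonical start. Nor did the microRNA genes MIR10A, MIR10B, MIR196A1, MIR196A2 and MIR196B. Peaks with a centre farther off, or near another start, were not counted here. The HOXC11 peak at 53973484 to 53973985 of chromosome 12 lies in the HOTAIR gene record, whose canonical start is at 53974956. The HOTTIP gene record starts at 27198575 of chromosome 7, and the HOXA13 peak at 27199195 to 27199696 lies in it.

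Genes that regulate HOX genes or act with HOX proteins were described from lists that covered 71 genes, of which 70 had a tested peak, with 820 peaks in all. At an adjusted p under 0.05 and a fold of at least 1.5, 17 of the 820 were higher and 7 lower, with a median log2 fold change of 0.01, beside the 1.87% higher and 1.44% lower of all tested peaks. Of 153 peaks of the TALE cofactors, 6 were higher and 1 lower (3.92% and 0.654%; DESeq2 called 3 higher and 1 lower). Among the rises was 1 in PBX3, a TALE partner of HOX proteins, with a log2 fold change of 0.88, and the lower peak was in MEIS2, where counts fell from 171.6 ± 8.61 to 95.4 ± 4.64 normalized counts (SD, 3 libraries each; log2 fold change -0.85, adjusted p = 0.000548).

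Of 233 peaks of retinoic acid genes, 7 were higher and 2 lower (3.0% and 0.858%). RARB, which encodes a retinoic acid receptor, held 3 of the rises, the largest from 49.9 ± 3.44 to 100.1 ± 16.8 normalized counts (SD over 3 libraries each; 0.995 on the log2 scale, adjusted p = 0.00273, edgeR). ALDH1A3, which makes retinoic acid, held 2, and CYP26A1 and CYP26C1, which degrade it, 1 each. The falls were in ALDH1A2, another retinoic acid synthesizing enzyme (-1.38, adjusted p = 0.000388), and in the receptor gene RARG (-0.83). Both directions thus occurred among genes for synthesis and for receptors.

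The other lists had few called peaks. Among 201 peaks of Polycomb genes 2 were higher and 1 lower, all intergenic peaks assigned to JARID2. Among 87 peaks of ParaHox and HOX-linked genes, EVX1 and GSX1 each had 1 higher and MEOX2 1 lower. The EVX1 peak, at 27277578 to 27278079 of chromosome 7, lies beyond the HOXA13 end of HOXA and rose from 80.3 ± 17.0 to 132.2 ± 15.4 normalized counts (SD over 3 libraries each; 0.69 on the log2 scale, adjusted p = 0.0141, edgeR). Among 68 peaks of Trithorax and MLL genes 0 were higher and 1 was lower, in the histone demethylase gene KDM6B (-0.62, adjusted p = 0.00518), and among 78 of CTCF and cohesin genes 0 were higher and 1 was lower, in STAG2 (-0.63, adjusted p = 0.0319). At an unadjusted p under 0.05 edgeR gave 1 peak higher and 10 lower among the 68 of the Trithorax and MLL list and 1 higher and 11 lower among the 78 of the CTCF and cohesin list, beside backgrounds of 10.7% higher and 10.2% lower. The other lists were even or leaned higher. They had 22 higher and 22 lower of 201 for Polycomb, 23 and 9 of 153 for TALE cofactors, 30 and 14 of 233 for retinoic acid, and 15 and 8 of 87 for ParaHox and HOX-linked genes. In the Trithorax and MLL list DESeq2 called 0 higher and 1 lower, and in the CTCF and cohesin list it called 0 higher and none lower.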

How the data were processed

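ATAC-seq counts came from 3 empty vector and 3 HMGB2OE libraries of A375 cells, grouped by their labels. Per the study's methods and the submitters' processing notes, the authors made the table in these steps: trimming (Trim Galore 0.6.7, cutadapt 4.0), alignment by Bowtie 2 (build hg38), removal of duplicates (Picard), peak calling by MACS2 with melanocyte data from another source as the control, exclusion of blacklisted regions, merging of peaks to 1 atlas, and counting by featureCounts. The deposited values are raw counts without normalization. The treatment of multi-mapping reads, a Tn5 shift, and whether peaks were called per library or on pooled libraries are not given in the sources used here, and could change which weak peaks are listed. The table's positions fitted the hg38 reference used here for 152795 of 152800 peaks.

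All peaks passing filterByExpr were fitted together with edgeR 4.0.16 in R 4.3.3 (TMM, quasi-likelihood F test, no covariate, Benjamini-Hochberg adjustment over 150117 peaks). TMM factors lay between 0.975 and 1.02. Normalized counts are counts divided by effective library size, times the mean effective size; standard errors come from the F statistic. Chi-square per degree of freedom between libraries of the same condition was 2.49 to 4.65, above sampling noise, so each library counts as 1. The fit was tested on simulated data. DESeq2 1.42.0, 3 other scalings, 2 other filters, a replicate block, GC-content offsets, both together, another fold limit, 2 other assignments of peaks to genes and the omission of each library were tried as alternatives. Genes named are the 39 HOX genes by promoter peak, in each cluster the 3 peaks with the smallest p and the highest mean count, a set of non-coding HOX genes, list genes with a called peak, and HMGB2. The members, lists and words were chosen with earlier results of these data known. A few items are not reported here.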

Additional observations from a re-analysis of the deposited data

How the results depend on the processing

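With the lower fold limit, 2 HOX peaks were called lower, and the cofactor and regulator lists had 30 peaks higher and 15 lower. The share of all tested peaks at that limit is not given here, so these counts have no background beside them. Removing the trend on mean count made 1 HOXA peak lower at an adjusted p under 0.05. Over all tested peaks 5427 were lower in that setting, beside 4546 in the main fit. GC-content offsets moved the median log2 fold change of all HOX peaks to -0.129 and that of HOXC to -0.0583, with that of all tested peaks at -0.028. The cause was not tested. The median of all tested peaks was between -0.028 and 0.0163 under every scaling.

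The replicate numbers do not mark a shared batch in the labels, and same-numbered libraries correlated at -0.0884, 0.191 and 0.128 in their deviations from the group means, so the numbers were not taken to pair the libraries. Of the HMGB2OE libraries, replicate 2 correlated best with its own number and replicates 1 and 3 did not. With the replicate block, 9 HOX peaks were lower at an adjusted p under 0.05, 2 of them in HOXA. Lower peaks also became more common elsewhere, at 5648 of all 150117 tested peaks with the block beside 4546 in the main fit. With the block and GC-content offsets together, 1 HOX peak, in HOXB2, was called lower, HOXB had 4 peaks with an adjusted p under 0.05, and the medians were -0.132 over all HOX peaks and -0.0552 in HOXC. In that setting 2596 of all 150117 tested peaks were called lower and 5333 were lower at an adjusted p under 0.05.

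With each library left out in turn, HOX peaks called lower numbered 0 to 2, and those lower at an adjusted p under 0.05 numbered 0 to 6, with 0 to 1 in HOXA, 0 to 3 in HOXB, 0 to 3 in HOXC and 0 to 3 among promoters. Over all 150279 to 150640 tested peaks of these settings, 1552 to 2237 were called lower and 2233 to 4073 were lower at an adjusted p under 0.05. Medians ranged from -0.125 to -0.0657 over all HOX peaks, -0.152 to -0.0324 in HOXA, -0.0284 to 0.0302 in HOXC and -0.164 to -0.0595 in HOXD. List peaks called higher numbered 10 to 16, lowest without HMGB2OE replicate 3, and called lower 3 to 10, with 3 without HMGB2OE replicate 1 and 4 without empty vector replicate 2. The HOXD peak from 176097296 to 176097797 reached a log2 fold change of 0.00532 with the trend on mean count removed, and ranged from -0.061 without HMGB2OE replicate 3 to 0.0135 without HMGB2OE replicate 1, with 0.00668 without empty vector replicate 2. Of the results for counts and medians, 327 comparisons with an alternative kept their value within the limits used and 41 moved. The 3 libraries per condition are technical, and the median standard error over HOX peaks was 0.136.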
